A study of Mus musculus with 6 samples.

Results

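The 8 genes described here are transcription factor and chromatin genes that bias blood stem and progenitor cells towards one lineage or another: Satb1, Ikzf1, Bcl11a and Tcf3 on the lymphoid side, Spi1, Cebpa and Cebpe on the myeloid side, and Dach1, which belongs to neither set. They were taken from the array by the RefSeq accession that its annotation gives each probe, with the brightest probe standing for a gene that had several, and they are 8 of the 20284 genes that could be named in this way. The series asked how loss of Tif1b, the chromatin corepressor whose gene is also called Trim28, alters expression in mouse KSL cells, a sorted fraction (c-Kit+ Sca1+ Lineage-) that holds the haematopoietic stem cells. There were 6 arrays, each from 1 RNA sample labelled with Cy3. Fetal liver (FL) KO cells carried Tie2-Cre and Tif1bf/f (1 array), and FL WT cells carried Tie2-Cre and Tif1bw/w (1 array). Bone marrow (BM) KO cells from adults carried CreERT and Tif1bf/f (2 arrays), and BM WT cells carried CreERT and Tif1bw/w (2 arrays). The WT cells thus carried the recombinase too, the background was C57BL6 (C57/BL6 in the BM pair numbered 2), and the second BM pair is labelled Tif2bf/f and Tif2bw/w in place of Tif1b. Tie2-Cre acts in endothelial cells and the blood cells that arise from them, CreERT needs an inducing drug that the labels do not name, and no ages are given. Nothing states that the BM replicates came from separate animals, so the p-values speak only to the spread among these RNA samples, part or all of which may be technical.

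Multipotent progenitors transcribe genes of several lineages at low level before they commit, a state called lineage priming. Spi1 encodes PU.1 and Cebpa encodes C/EBPα, which together open the granulocyte and monocyte programme, while Cebpe encodes C/EBPε, which acts later in granulocyte maturation. Ikzf1 encodes Ikaros, Tcf3 encodes the E proteins E12 and E47, and Bcl11a encodes a zinc finger repressor, all needed for B cell or wider lymphoid development. Satb1 encodes a chromatin organiser that promotes lymphoid potential in stem cells and T cell development. Dach1 encodes a relative of the Drosophila dachshund protein that works with EYA proteins and homeodomain proteins of the sine oculis family and marks stem and myeloid-biased progenitors in mouse bone marrow.

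Values are log2 signal relative to the 75th percentile of the same array, so a value of 0 marks that percentile and levels of different genes are not compared. The scanner called 24381 to 31416 of 55681 probes well above background, and the raw signal at the 75th percentile ran from 210.6 to 743.0. The number of arrays limits the precision. Each KO array shared a slide with the WT array of the same tissue and number, giving an FL pair and 2 BM pairs. BM WT replicate 1 needs care. Its column in the authors' value table matched its scanner file within 1% for only 1.41% of probes, against more than 99% for every other array, and its description line names Hp1aKD c-Kit+ Lineage- cells (that of BM KO replicate 1 names Hp1gKD). Kit, which the c-Kit gate sorts on, had 1.30 in that scanner file and 4.16 in the table, and between 4.17 and 4.50 on the other 5 arrays. Ly6a, which encodes Sca1, was at 0.77 and 0.31 on the FL KO and FL WT arrays and between 3.36 and 6.04 on the BM arrays from either source, and was above background on all 6 arrays. A lineage-negative sort should remove B cells. Of 10 B cell markers, that scanner file had 10 above background, while the table column had 4. BM KO replicate 2 had 9 and BM WT replicate 2 had 8, so this count alone does not set the scanner file apart. BM KO replicate 1 had 4. Summed B cell marker signal was 8.10 on the log2 scale from the scanner file. It was 4.43 from the table column and between 3.84 and 5.37 on the other 5 arrays. BM results are therefore given from both sources, with the scanner value beside the table value for genes outside the 8. The slide of BM WT replicate 1 was read from its scanner file. Whether the table column came from an array on that slide could not be checked. BM pair 1 from the table, and every fit of the table with slides blocked, assume that it did. Trim28, the targeted gene, was at 1.68 on the FL KO array and at 1.28 and 0.75 on the BM KO arrays. It was at 5.97 on the FL WT array, at 5.18 (table) or 2.45 (scanner file) on BM WT replicate 1 and at 5.55 on BM WT replicate 2. Where the Trim28 probe lies relative to the deleted part of the gene is not known here. In these bulk samples, fewer cells of a type and less RNA per cell cannot be told apart.

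Satb1 was the one lymphoid factor whose KO arrays all lay below its WT arrays, whichever source was used for BM WT replicate 1. On the FL arrays its level was -0.41 in KO and 2.54 in WT, a difference of -2.95, or 7.72-fold lower in KO, from 1 array each and so without a test. On the BM arrays it was at -1.83 and -1.36 in KO, and at 2.53 (table; 1.68 in the scanner file) and 2.17 in WT. The KO arrays were thus the 3 lowest of the 6 and the groups did not overlap. Among all genes tested, 3.9% had all 3 KO arrays below all 3 WT arrays with the table column and 1.71% with the scanner file. Within pairs, KO minus WT was -4.36 in BM pair 1 from the table (20.5-fold lower), -3.51 in the same pair from the scanner file, and -3.53 in BM pair 2 (11.5-fold lower).

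In the table, BM Satb1 fell by 3.94 ± 0.30 (SE from 2 KO and 2 WT arrays; limma adjusted p = 0.0156, or 0.00316 once slides were blocked). It was 1 of 2 factors among the 8 to pass, where 0.876% of 12783 genes passed in that fit. The scanner files gave a difference of -3.52 ± 0.42 (n = 2 per genotype), with a limma p of 4.22e-04 that became 0.561 after adjustment over 13010 genes. In that fit 0 of 8 factors and 0% of genes passed, with 548 genes at an unadjusted p under 0.05, and the slide as a block also gave 0%. Without BM WT replicate 1 the scanner files gave Satb1 -3.76 (limma adjusted p = 7.7e-06), and 1.98% of genes then passed. In the table the call was lost only when no filter on dim genes was applied (adjusted p = 0.0971).

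**Figure D1:**
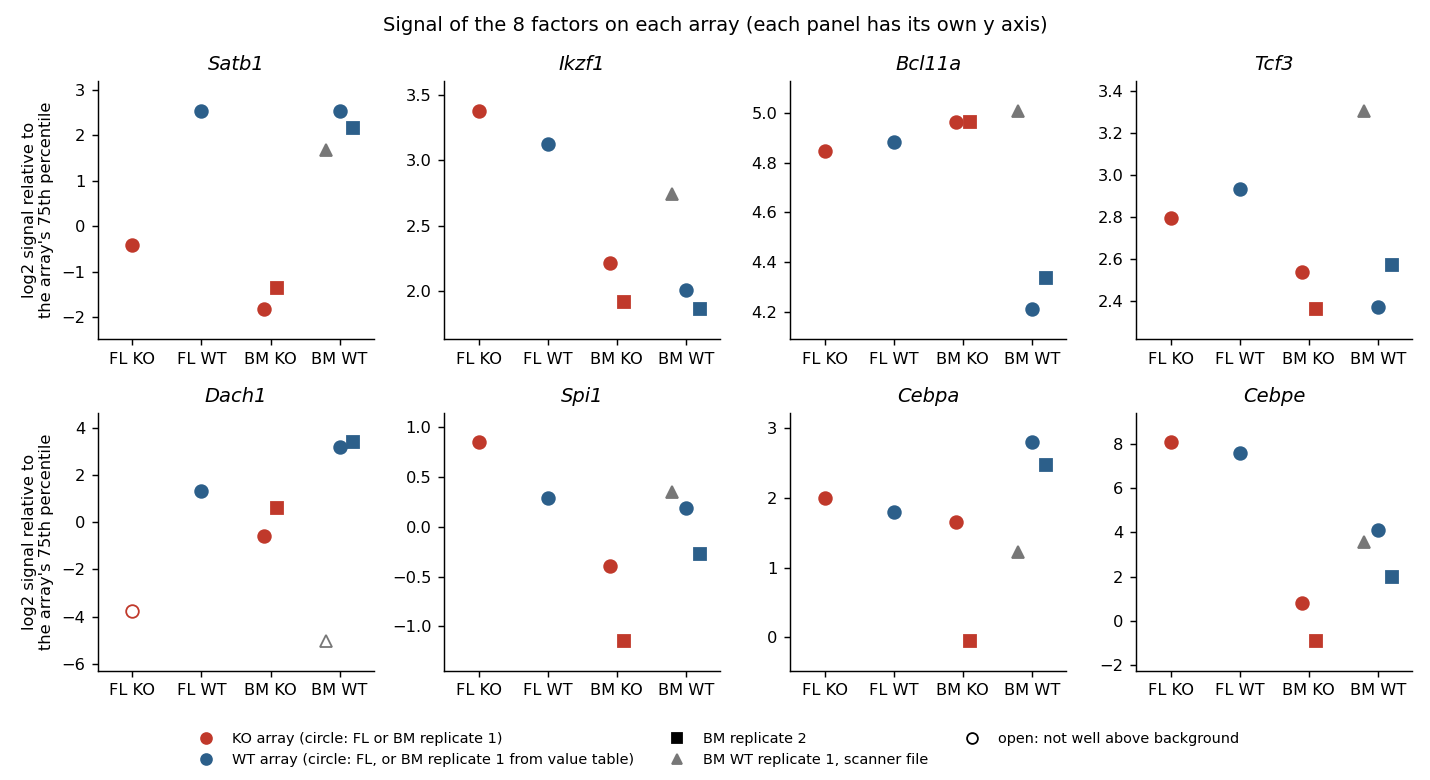
Level of each of the 8 factors on each array, as log2 signal relative to the 75th percentile of the array, with KO in red and WT in blue, circles for FL and BM replicate 1 and squares for BM replicate 2. The grey triangle is BM WT replicate 1 read from its scanner file, and open symbols were not well above background. The KO arrays of Satb1 sit between -1.83 and -0.41, below all WT symbols, while the grey triangle of Dach1 at -5.03 lies far from the table's 3.20.

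The other lymphoid factors had no difference past the threshold in bone marrow. Ikzf1 was at 3.38 on the FL KO array and 3.13 on the FL WT array. Its BM levels were 2.22 and 1.92 in KO, and 2.01 (table; 2.75 in the scanner file) and 1.86 in WT. The BM groups overlapped, and the table difference was 0.13, with a 95% interval of -0.52 to 0.78 (limma adjusted p = 0.982). Tcf3 was at 2.79 on the FL KO array and 2.93 on the FL WT array. In bone marrow Tcf3 was at 2.54 and 2.36 in KO, and at 2.38 (table; 3.30 in the scanner file) and 2.57 in WT. These groups overlapped as well with the table column, and the difference was -0.02, with an interval of -0.66 to 0.61 (limma adjusted p = 0.999). With the scanner file, both BM KO arrays were below both WT arrays for Tcf3, as they were for 13.1% of all genes. Bcl11a was at 4.85 on the FL KO array and 4.88 on the FL WT array. Bcl11a in bone marrow was at 4.96 on both KO arrays, and at 4.21 (table; 5.01 in the scanner file) and 4.34 in WT. With the table column the KO arrays were the higher ones and did not overlap WT, as for 17.6% of all genes. The difference was 0.69, with an interval of 0.08 to 1.30, and did not pass adjustment (limma adjusted p = 0.372, and 0.0775 with the slide as a block). With the scanner file the KO and WT arrays of Bcl11a overlapped. Ikzf1, Bcl11a and Tcf3 each had a second, dimmer probe above background on all 6 arrays. The second Bcl11a probe gave 1.12 and 0.65 in BM pairs 1 and 2 from the table, in the same direction as the first. For Ikzf1 the second probe turned the sign in BM pair 1 from the table, to -0.04 against 0.21, and for Tcf3 likewise, to -0.18 against 0.17.

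Dach1 had the largest FL difference of the 8 factors, and its BM direction depended on which source stood for BM WT replicate 1. Its level was -3.79 on the FL KO array, where the probe was not well above background, and 1.35 on the FL WT array. Set against the dimmest probe called well above background on the FL KO array, the processed signal of Dach1 was at least 25.2-fold lower in FL KO. This bound holds only for the scanner's own background correction. Satb1 and Dach1 were the 2 of 8 factors at least 2-fold lower in FL KO, as were 4.41% of 12699 genes. The measured Dach1 difference was -5.14, with 1 array each and no test, and with another background correction (normexp) it was -2.96. On the BM arrays Dach1 was at -0.56 and 0.62 in KO and at 3.40 on WT replicate 2. BM WT replicate 1 had 3.20 in the table and -5.03, not well above background, in the scanner file. With the table column both KO arrays were below both WT arrays, as were those of 19.6% of genes. With the scanner file the WT arrays lay on either side of KO.

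In the table Dach1 fell by 3.27 ± 0.44 in BM KO (SE, n = 2 per genotype, 9.65-fold, limma adjusted p = 0.0498). Within pairs the difference was -3.76 in BM pair 1 and -2.78 in BM pair 2, and blocking on slides brought the adjusted p to 0.00607. The call lay at the threshold: it was lost with quantile normalisation (adjusted p = 0.0768), with the mean of both Dach1 probes (0.0532), without a filter (0.200) and with a filter on every array (0.0642). From the scanner files BM pair 1 gave 4.47, and the fit gave 0.85 ± 2.74 (limma adjusted p = 1.00). Without BM WT replicate 1 that fit gave -3.37 (adjusted p = 1.02e-04), and without BM WT replicate 2, which left the scanner file as the only WT array, it gave 5.06 (4.39e-09), in a fit that called 17.1% of genes. The second Dach1 probe had the same directions as the first. It gave -3.74 in the FL pair, where it too was not well above background in KO, -3.53 (table) or 3.06 (scanner file) in BM pair 1, and -2.97 in BM pair 2. Satb1 in both sources, Dach1 with the table column and Tcf3 with the scanner file were lower in KO in all 3 pairs. So were 11.5% of genes in the scanner files and 26.3% with the table column. Summed stem and progenitor marker signal was 8.48 and 8.22 in BM KO and 8.42 (table; 6.69 in the scanner file) and 8.14 in BM WT on the log2 scale. The groups overlapped with the table column, where 10 of 10 genes were above background on each array, against 7 of 10 in the scanner file. Cd34 was the brightest of these markers on every array and dominates the sum. Gene by gene, 7 of 10 were higher in BM KO with the table column, with a median of 0.64. Of these 10, 1 passed with the slide as a block and 0 without it. In the scanner files 10 of 10 were higher, with a median of 2.13, and 0 passed. Summed megakaryocyte marker signal was 8.0 and 8.16 in KO and 7.13 (table; -0.13 in the scanner file) and 6.98 in WT. Summed erythroid marker signal was 6.16 and 3.65 in BM KO and 2.46 (table; 8.70 in the scanner file) and 2.83 in BM WT. All 7 of 7 erythroid markers tested with the table column were higher in BM KO, with a median of 1.53. Over all genes in that fit the median was -0.05, and 44.2% were higher. Of the 7 markers, 2 passed with the slide as a block, where 7.67% of all genes did, and 0 without it. The part of these markers in the BM differences was not tested. On the FL arrays, summed erythroid marker signal was 7.65 in KO and 6.41 in WT. Hba-a1, the brightest of these markers, was at 7.53 in KO and 6.09 in WT. Of 9 erythroid markers measured, 2 were at least 2-fold higher in KO and 0 at least 2-fold lower. Their median difference was 0.05. On the same FL arrays, summed hepatocyte marker signal was 4.99 in KO and 5.54 in WT. Of 9 hepatocyte markers measured there, 6 were at least 2-fold lower in KO and 1 at least 2-fold higher. Their median difference was -1.65. Among all genes, 4.41% were at least 2-fold lower and 5.32% at least 2-fold higher. Of 10 B cell markers, 2 were above background in FL KO and 6 in FL WT. The part of these markers in the FL differences was not tested.

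Of the 8 factors, 6 (all but Cebpe and Spi1) matched the RefSeq promoter table of build GRCm38.p6. The 250 bases before the most upstream listed start of Satb1 and before the start of Dach1 are shown because these are the 2 factors that passed in bone marrow with the table column and no block (0 of 8 did so in the scanner files). The windows were searched for letters that E proteins, Ikaros, PU.1 and C/EBP factors recognise. Both genes lie on the minus strand and are written 5′ to 3′ in the direction of transcription, Satb1 at chr17:51833291-51833540 and Dach1 at chr14:98169766-98170015. Capitals mark matches to GAGGAA on either strand, letters of the PU.1 core, which read TTCCTC when the match is on the opposite strand.
Satb1: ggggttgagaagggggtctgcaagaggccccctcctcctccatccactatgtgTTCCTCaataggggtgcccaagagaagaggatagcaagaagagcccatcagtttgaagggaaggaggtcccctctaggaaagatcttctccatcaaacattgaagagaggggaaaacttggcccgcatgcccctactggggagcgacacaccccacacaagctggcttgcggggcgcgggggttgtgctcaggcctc
Dach1: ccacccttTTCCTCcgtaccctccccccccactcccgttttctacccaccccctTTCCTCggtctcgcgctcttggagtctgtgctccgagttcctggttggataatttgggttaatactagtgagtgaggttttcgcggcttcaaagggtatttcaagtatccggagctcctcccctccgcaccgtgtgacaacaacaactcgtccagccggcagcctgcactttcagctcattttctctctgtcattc
The Satb1 window held 1 such match, starting at -197 from the start, and the Dach1 window held 2, at -242 and -196. GAGGAA occurred in 23.3% of 32851 promoter windows of the same length. Neither window held CAGNTG (an E box of E proteins, in 44.8% of windows), TGGGAA (an Ikaros core, 21.6%) or TTGCNNAA (C/EBP letters, 9.56%) on either strand. TGGGAA and GAGGAA share their last letters, GGAA. Of the other 4 starts listed for Satb1, 1 held 2 CAGNTG matches, 1 held 2 GAGGAA matches, 1 held 1 match each to GAGGAA and TGGGAA, and 1 held none. Among these 4, the windows with GAGGAA overlap, and 1 GAGGAA match lies in both. A match describes the letters in these windows and no more.

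All 3 myeloid factors were lower in both BM KO arrays than in the WT array of the same pair when the table column was used. They were higher in the FL KO array than in FL WT. Their BM KO arrays also lay below both BM WT arrays with that column, as did those of 19.6% of all genes. The share of genes that were also higher in FL KO was not counted. With all 4 BM arrays, none of the 3 factors passed in bone marrow without the slide as a block. Cebpe was at 8.06 on the FL KO array and 7.58 on the FL WT array. In bone marrow Cebpe was at 0.82 and -0.89 in KO, and at 4.11 (table; 3.57 in the scanner file) and 1.98 in WT. The KO arrays were below the WT arrays from either source, as were those of 13.1% of all genes in the scanner files. KO minus WT was -3.29 (table; 9.76-fold lower) or -2.75 (scanner file) in BM pair 1 and -2.87 (7.31-fold lower) in BM pair 2. The table fit gave -3.08 ± 0.86 (SE, n = 2 per genotype, limma adjusted p = 0.248), and both arrays of BM pair 1 were higher than those of the same genotype in pair 2. With the slide as a block Cebpe had the same -3.08 with an SE of 0.19 and passed (adjusted p = 0.00303), in a fit where 7.67% of genes passed and 4 of the 8 factors did. Without a block, the table call of Cebpe was also reached without BM WT replicate 1 (adjusted p = 0.0182, with 2.69% of genes passing), BM KO replicate 1 (0.00734, 4.54%) or BM WT replicate 2 (1.03e-08, 5.16%). Without BM KO replicate 2 Cebpe had -2.22 and did not pass (0.134), and over these 4 settings its difference ran from -4.14 to -2.01, the smallest being without BM WT replicate 1. The scanner fits called Cebpe only without BM WT replicate 2, at -3.60 (7.79e-06).

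Cebpa was at 2.00 on the FL KO array and 1.79 on the FL WT array. On the BM arrays Cebpa was at 1.66 and -0.05 in KO, and at 2.80 (table; 1.22 in the scanner file) and 2.48 in WT. The KO arrays were lower without overlap with the table column, as for 19.6% of all genes, and overlapped the scanner file. KO minus WT was -1.13 (table) or 0.44 (scanner file) in BM pair 1 and -2.52 (5.74-fold lower) in BM pair 2. The table fit gave -1.83 ± 0.58 (n = 2 per genotype, limma adjusted p = 0.315), and with the slide as a block Cebpa fell by 1.83 ± 0.35 (0.0458). Without a block Cebpa passed when BM KO replicate 1 (-2.68, 0.00238) or BM WT replicate 2 (-1.99, 0.0125) was left out. It did not pass without BM WT replicate 1 (-1.67, 0.0949) or without BM KO replicate 2, where its difference was -0.97 (0.332). Spi1 was at 0.85 on the FL KO array and 0.29 on the FL WT array. In bone marrow Spi1 was at -0.40 and -1.14 in KO, and at 0.19 (table; 0.35 in the scanner file) and -0.27 in WT. Its KO arrays were below WT from either source, with the nearest of each, at -0.40 and -0.27, close together. The same order held for 19.6% of all genes with the table column and 13.1% in the scanner files. The table difference was -0.73, with a 95% interval of -1.63 to 0.17 (limma adjusted p = 0.582, and 0.0776 with the slide as a block). Summed neutrophil marker signal was lower in BM KO as well, at 8.10 and 4.96, against 10.5 (table; 10.5 in the scanner file) and 9.51 in WT, with 8 of 10 genes above background on both KO arrays and 9 of 10 (table) on both WT arrays. Summed monocyte and macrophage marker signal was 5.04 and 3.97 in KO, against 7.66 (table; 9.09 in the scanner file) and 6.59 in WT. Their part in the Cebpe, Cebpa and Spi1 differences was not tested.

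Set side by side, the median KO minus WT of the 4 lymphoid factors was -0.09 in the FL pair and that of the 3 myeloid factors was 0.48, so the lymphoid median stood 0.57 log2 units below the myeloid one. In BM pair 2 the lymphoid median was -0.08 and the myeloid median -2.52, and the lymphoid median stood 2.44 above. In BM pair 1 from the table the lymphoid median was 0.19 and the myeloid median -1.14, and the lymphoid median stood 1.32 above. With the table column, the direction of the balance thus differed between the FL pair and both BM pairs. The myeloid median was the value of 1 gene, Cebpe in the FL pair and Cebpa in both of these BM pairs. In the FL pair each genotype had 1 array. Among BM arrays with the table column, Cebpe had a within-genotype SD of 1.36. From the scanner file the gap in BM pair 1 was 0.10, and it turned to -0.05 with normexp, -0.06 with quantile normalisation and -0.13 with the mean of all probes. The medians over all genes were -0.06 in the FL pair, 0.02 in BM pair 1 from the table and -0.09 in BM pair 2. The lymphoid median does not show Satb1, which lay between -4.36 and -2.95 in these pairs, while the other lymphoid factors lay between -0.76 and 0.75 from either source.

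**Figure D2:**
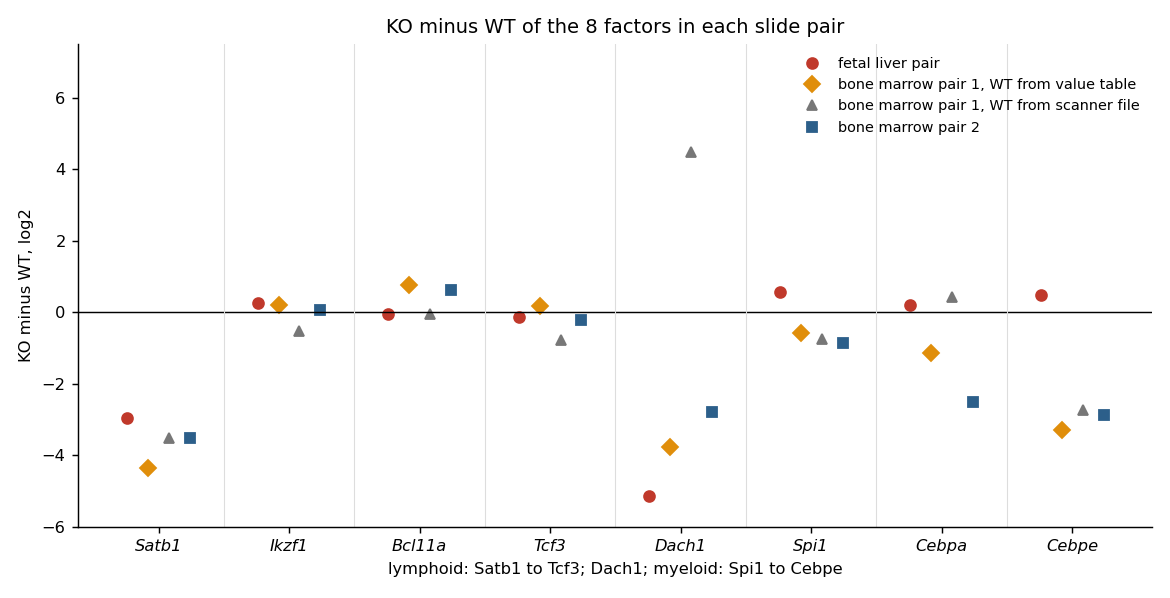
KO minus WT in log2 units for each of the 8 factors in each slide pair, 1 array per genotype in each pair. Satb1 lies between -4.36 and -2.95 in all pairs, Ikzf1, Bcl11a and Tcf3 lie between -0.76 and 0.75 from either source, and the myeloid factors lie above 0 in the FL pair (red circles) and below 0 in BM pair 1 from the table (orange diamonds) and BM pair 2 (blue squares). The grey triangles replace the table column by the scanner file of BM WT replicate 1, which moves Dach1 to 4.47.

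A fit over all 6 arrays, with tissue as a term, tested the genotype difference common to both tissues. With the table column Satb1 fell by 3.61 ± 0.29 (SE from 3 KO and 3 WT arrays; limma adjusted p = 0.0272), and it was the only one of the 8 factors to pass, where 0.17% of 13496 genes passed. Once slides were blocked 0% of genes passed, and Satb1 had an adjusted p of 0.128. In the scanner files Satb1 had -3.33 ± 0.30 (adjusted p = 0.206), and 0% of 13658 genes passed, with 466 at an unadjusted p under 0.05. Dach1 had -3.89 ± 0.50 with the table column (adjusted p = 0.101) and -1.15 ± 2.49 in the scanner files (1.00). The other 6 factors had adjusted p-values of 0.565 or more with the table column.

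The difference between the tissues in the genotype effect, BM minus FL, was tested in the same arrays under the assumption that FL arrays vary like BM arrays. The FL and BM cells carried different Cre transgenes and each slide held 1 tissue. Tissue, Cre line and slide therefore cannot be told apart in this contrast. Cebpe had -3.29 ± 1.45 in the scanner files (limma adjusted p = 1.00) and -3.56 ± 1.52 with the table column (0.793), and in these fits 0% of genes passed, with 351 at an unadjusted p under 0.05 in the scanner files. With the table column and the slide as a block, Cebpe was the only one of the 8 factors to pass (-3.56 ± 0.33, adjusted p = 0.0236), where 2.76% of genes passed. In that fit Dach1 had 1.87 ± 0.49 (adjusted p = 0.177), its FL KO signal not being well above background, Spi1 -1.29 ± 0.31 (0.141) and Cebpa -2.04 ± 0.63 (0.244). In the scanner files, leaving out BM WT replicate 2 gave Cebpe -4.08 (0.00877) and Dach1 10.2 (1.19e-06), where 10.2% of genes passed. For Satb1 the difference between tissues was -0.99 with the table column and the slide as a block, with a 95% interval of -2.17 to 0.18 (0.441). The scanner files gave -0.57, with an interval of -2.48 to 1.34 (1.00).

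Between tissues over both genotypes, Cebpe was lower in bone marrow than in fetal liver. Its BM levels ran from -0.89 to 4.11 and its FL levels were 8.06 and 7.58. In the scanner files Cebpe fell by 6.45 ± 0.98 in BM (limma adjusted p = 0.0492), where 2.1% of genes passed and Cebpe was the only factor of the 8 to do so. Using the table column, 22.9% of genes passed and so did 3 factors. Cebpe fell by 6.31 ± 1.05 (0.016), Ikzf1 fell by 1.25 ± 0.19 (0.0126) and Dach1 rose by 2.88 ± 0.53 (0.0205). With the slide as a random block in that source, 6.17% of genes passed and Ikzf1 (0.0447) was the only factor that did, with Cebpe at 0.0654 and Dach1 at 0.091. In the scanner files the Cebpe call was lost without BM KO replicate 1 (0.150), BM KO replicate 2 (0.137) or BM WT replicate 2 (0.0872), with its difference between -6.58 and -5.85. Without BM WT replicate 1 the 3 factors of the table fit passed there too, with Ikzf1 at -1.29 (0.0343), Dach1 at 3.06 (0.0369) and Cebpe at -7.02 (0.0147), where 13.3% of genes passed. Each slide held 1 tissue, and the FL and BM cells also carried different Cre transgenes, so tissue, Cre line and slide cannot be told apart here.

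Family relatives of the 8 factors were examined next, 18 genes in all, of which 15 were tested with the table column in bone marrow. Without a block 0 of 15 passed, where 0.876% of all genes did. With the slide as a block 2 fell and 1 rose, where 7.67% of all genes passed. Of 17 tested in the scanner files, 0 passed. Cebpd, which encodes C/EBPδ of the granulocyte and inflammatory response, was at 3.37 and 1.92 in BM KO, against 5.44 (table; 4.34 in the scanner file) and 3.90 in BM WT. It fell by 2.02 ± 0.16 (limma adjusted p = 0.00567, and 0.352 without the block). Cebpb, which encodes C/EBPβ of emergency granulopoiesis and macrophages, was at 2.72 on both BM KO arrays, against 3.97 (table; 3.35 in the scanner file) and 3.77 in BM WT. Its groups did not overlap, with KO lower, as for 19.6% of all genes with the table column. It fell by 1.15 ± 0.17 (0.025, and 0.151 without the block). Ikzf4, which encodes Eos of the Ikaros family, was at -2.25 and -0.94 in BM KO, against -3.65 (table; -3.09 in the scanner file) and -1.92 in BM WT. It rose by 1.19 ± 0.19 (0.0289, and 0.693 without the block), and its groups overlapped across slides. In fetal liver the same 3 relatives were higher in KO, by 0.37 for Cebpd, 0.63 for Cebpb and 1.59 for Ikzf4, from 1 array each, the FL WT signal of Ikzf4 not being well above background.

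The remaining relatives did not pass. From the table column, the C/EBP genes Cebpg and Cebpz had 0.15 and -0.32, and the Ikaros family genes Ikzf2, Ikzf3 and Ikzf5 had 0.51, 0.49 and 0.04. The E protein genes Tcf4 and Tcf12, partners of Tcf3 at E boxes, had -0.03 and 0.24. The Id genes, whose products bind E proteins and keep them off DNA, had -0.21 for Id1, 0.05 for Id2 and 0.89 for Id3 (limma adjusted p = 0.901, and 0.0512 with the slide as a block). Dach2 had -0.42 and Spic, a PU.1 relative of red pulp macrophages, had 0.36. The sign turned in the scanner files for Cebpz (0.20), Ikzf3 (-0.71), Ikzf5 (-0.08), Id1 (1.25), Id2 (-1.66) and Dach2 (1.21, its BM WT replicate 1 signal not being well above background), and Ikzf2 had 2.14 and Tcf4 -0.93. Spib and Bcl11b were not tested with the table column, and Id4 was not well above background on any array. Spib, a PU.1 relative of B cells and plasmacytoid dendritic cells, was at -5.26, not well above background, on the FL KO array and -1.90 on the FL WT array. Over the 15 relatives tested, 9 were higher in BM KO, with a median of 0.05, against a median of -0.05 over all genes, of which 44.2% were higher.

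**Figure D3:**
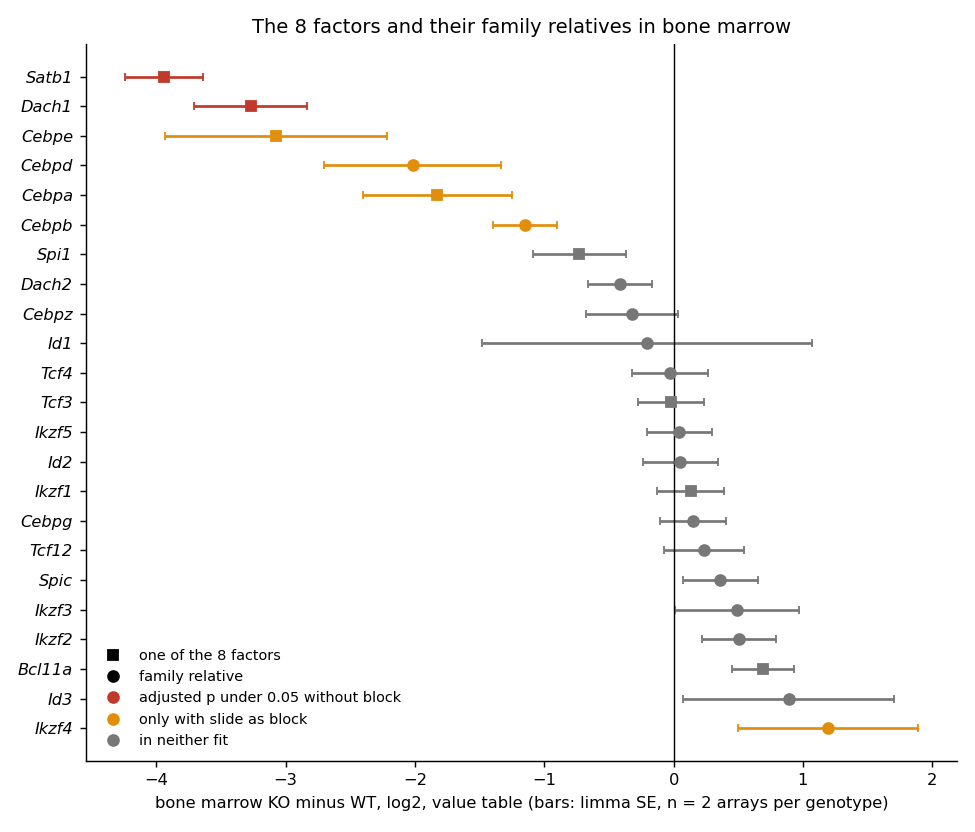
BM KO minus WT of the 8 factors (squares) and of the 15 family relatives tested (circles), with BM WT replicate 1 from the value table, n = 2 arrays per genotype and bars giving the limma SE of the fit without a block. Satb1 and Dach1 (red) passed without a block, and Cebpe, Cebpd, Cebpa, Cebpb and Ikzf4 (orange) passed in the fit of all 4 arrays with the slide as a block and not in the one without it.

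Genes known to act downstream of or beside the myeloid factors were lower in BM KO for 17 of 23 tested with the table column. Their median was -1.32, against -0.05 over all genes, of which 44.2% were higher. Without a block 4 fell and 0 rose, where 0.876% of all genes passed. Elane, the neutrophil elastase gene, was at 2.00 and 1.41 in BM KO, against 6.67 (table; 4.32 in the scanner file) and 5.29 in BM WT, and fell by 4.27 ± 0.51 (limma adjusted p = 0.0393). Irf8, the factor of monocytes and dendritic cells, was at 1.22 and 0.87 in BM KO, against 5.80 (table; 7.18 in the scanner file) and 4.57 in BM WT, and fell by 4.14 ± 0.45 (0.0291). Csf1r, the M-CSF receptor gene and a PU.1 target, was at 2.18 and 1.69 in BM KO, against 5.40 (table; 7.97 in the scanner file) and 4.48 in BM WT, and fell by 3.00 ± 0.40 (0.049). Camp, the cathelicidin gene and a C/EBPε target, fell by 2.74 ± 0.25 (0.0207), with a scanner difference of -5.03. In each of these the BM KO arrays were the lower ones without overlap from either source. The same order held for 19.6% of all genes with the table column and 13.1% in the scanner files. With the slide as a block 11 fell and 0 rose, where 7.67% of all genes passed, the further ones being Cd14, Ctsg, Fcgr3, Gfi1, Ltf, Mpo and Prtn3, with differences from -3.70 (Mpo) to -1.07 (Gfi1). The scanner differences of the same 7 ran from -4.62 (Ltf) to -0.12 (Gfi1). Csf3r, the G-CSF receptor gene and a C/EBPα target, had -0.26 (-0.34 in the scanner files) and Lyz2, the lysozyme gene, had 0.18 (-0.40), and neither passed. Of these 24 genes, 6 are also neutrophil markers and 3 monocyte markers in the lists summed above. With the scanner files the median was -1.38 over 24 genes tested and 0 passed. In fetal liver the median was 0.05, with 6 at least 2-fold higher in KO and 4 at least 2-fold lower, where 5.32% of 12699 genes were at least 2-fold higher and 4.41% at least 2-fold lower.

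Genes of early lymphoid cells were lower in BM KO for 15 of 20 tested with the table column, with a median of -0.34. Over all genes in that fit the median was -0.05, and 44.2% were higher. Without a block 0 of 20 passed, where 0.876% of all genes did. With the slide as a block 5 fell and 0 rose, where 7.67% of all genes passed. Flt3, a receptor of lymphoid-primed progenitors, was at 3.23 and 2.10 in BM KO, against 4.97 (table; 6.34 in the scanner file) and 4.07 in BM WT, and fell by 1.86 ± 0.17 (limma adjusted p = 0.00802). Dntt, which encodes the terminal transferase that adds bases at antigen receptor joints, was at 5.54 and 3.83 in BM KO, against 7.12 (table; 9.21 in the scanner file) and 5.91 in BM WT, and fell by 1.83 ± 0.20 (0.0107). Il7r, the interleukin 7 receptor gene, fell by 2.78 ± 0.44 (0.0292), with 1 of 2 KO arrays above background. Rag2, a recombinase gene that Satb1 is known to act on together with Rag1, fell by 1.96 ± 0.18 (0.00729), and Vpreb1, a surrogate light chain gene, fell by 1.69 ± 0.17 (0.00945). The scanner differences were -4.70 for Il7r, -2.98 for Rag2 and -3.43 for Vpreb1. Ccr7, Ccr9 and Gata3 had -0.33, -0.90 and 0.42 (-3.65, -3.59 and 0.77 in the scanner files) and did not pass in bone marrow. The median in the scanner files was -2.48 over 21 genes, and 0 passed. Of the 22 lymphoid genes in the fit over all 6 arrays, 18 were lower and 4 higher in KO in BM pair 1 from the table. In BM pair 2, 13 were lower and 9 higher, with values from -3.07 to 2.62. Some genes of this list, Vpreb1 among them, are also B cell markers in the list summed next. Summed B cell marker signal was 3.84 and 4.79 in BM KO, against 4.43 (table; 8.10 in the scanner file) and 4.18 in BM WT, so that its groups overlapped with the table column. In fetal liver, 7 of 21 lymphoid genes were at least 2-fold lower in KO and 0 at least 2-fold higher, with a median of -0.63, where 4.41% of all genes were at least 2-fold lower and 5.32% at least 2-fold higher. Vpreb1 was among the 7, at -0.25 on the FL KO array and 2.01 on the FL WT array.

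**Figure D4:**
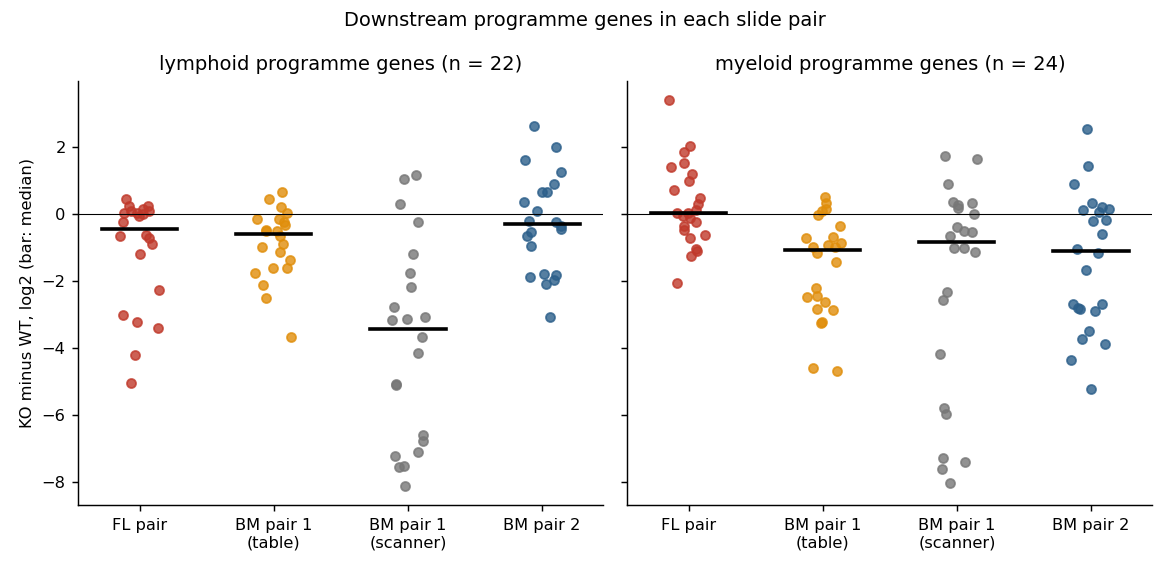
KO minus WT in log2 units of each lymphoid gene (left, 22 genes) and myeloid gene (right, 24 genes) that entered the fit over all 6 arrays with the table column, per slide pair, with the median as a bar. The myeloid median is 0.05 in the FL pair, -1.06 in BM pair 1 from the table and -1.10 in BM pair 2, and the lymphoid median is -0.42, -0.58 and -0.30 in the same pairs. The grey points use the scanner file of BM WT replicate 1.

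Among 7 Eya and sine oculis family genes, whose products form complexes with DACH1, 4 were tested in bone marrow and 0 passed without a block, where 0.876% of all genes did, or in the scanner files. Eya2, a phosphatase and coactivator gene, was at 3.87 and 3.91 in BM KO, against 2.47 (table; 0.17 in the scanner file) and 2.61 in BM WT. It rose by 1.34 ± 0.17 with the slide as a block (limma adjusted p = 0.0152, and 0.0992 without it), in a fit where 7.67% of all genes passed, and was higher in FL KO by 0.85. Eya1, Eya3 and Six5 had -0.21, -0.33 and 0.51 (-0.41, 0.18 and 1.62 in the scanner files). Six2 and Six4 were not well above background on any array, and Eya4 was above it on 2.

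Over the 5 scanner files and the table column of BM WT replicate 1, the genes with levels most like Satb1 were Gria3, a glutamate receptor gene (Pearson r = 0.983), Gspt2, a translation release factor gene (0.983), and Trim28 itself (0.976), out of 7925 genes compared. Those most like Dach1 were 3830403N18Rik (0.982), the interferon gene Ifna2 (0.976) and the lipoprotein lipase gene Lpl (0.966), of which the last 2 were above background on 3 of the 6 arrays. These are descriptions over 6 arrays that share the tissue and genotype groups and the slides. Over the same 6 values, the range of Cebpe was 8.95 log2 units, that of Dach1 7.19 and that of Satb1 4.37, while Bcl11a and Tcf3 ranged over 0.75 and 0.57.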

How the data were processed

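Total RNA (10 ng per sample) from sorted KSL cells was labelled with Cy3 and hybridised to 6 one-colour Agilent arrays of 62976 spots on 3 slides. Per the submitters' processing notes, the authors used Agilent Feature Extraction 10.7.1.1, and per the file headers the deposited scanner files hold a processed signal intensity, background-subtracted. The authors' deposited value table holds, for 5 of 6 arrays, the processed signal as a ratio to 1 constant per array; its scale for BM WT replicate 1 is unknown, since that column did not match its scanner file.

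From these, control and outlier-flagged spots were left out, spots of a probe were averaged, and log2 of the signal minus its array's 75th percentile was taken, with the same for the table. Of 55681 probes, 26762 were named through RefSeq accessions (20284 genes, brightest probe per gene). Genes well above background on all arrays of at least 1 group were tested with limma 3.58.1 in R 4.3.3, with Benjamini-Hochberg adjustment over all genes and a threshold of 0.05. For the table column of BM WT replicate 1 a level of -3.7 replaced the background flags (99.1% agreement on BM KO replicate 1). Fetal liver had 1 array per genotype and no test. Both the scanner files and the table were fitted, with the slide as a block among the alternatives. The slide was read from the file headers, and within bone marrow it equals the replicate number. The table column of BM WT replicate 1 was assumed to share the slide of its scanner file. Deviations of the slide partners from their BM group means correlated at 0.05 in the scanner files and 0.56 with the table column over all genes. The normexp alternative used the median and background median signals with an offset of 50, as no mean signal was used here, which departs from the plan. Other alternatives were quantile normalisation, other filters, the mean of all probes, an offset of 0.05 on table values and leaving out each array. Fits of all 6 arrays from the table with slides blocked were added after seeing the data. A bound on a fold was set against the dimmest probe that the scanner called well above background on the dim array. Fits were tested on simulated data. The 8 members, the gene lists and the rule for named genes (all members and relatives, list genes passing in any bone marrow or 6-array fit, and the 3 genes most correlated with Satb1 and with Dach1) were chosen with earlier results of these data known. Some family genes are not reported here.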

Additional observations from a re-analysis of the deposited data

Results flagged for a closer look

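For 4 factors the FL array pair moved one way and both BM pairs the other, with 1 array per genotype in each pair, and this contrast between single pairs was not tested. Spi1 had 0.56 in the FL pair, against negative values in both BM pairs from either source. Cebpe had 0.48 in the FL pair, again against negative values in both BM pairs from either source. Cebpa had 0.21 in the FL pair, against negative values in both BM pairs from the table. Bcl11a had -0.0367 in the FL pair, against positive values in both BM pairs from the table, and turned to 0.0368 in the FL pair with quantile normalisation and to 0.0819 with the mean of all probes. The fit over all 6 arrays did test the tissue difference of the genotype effect, BM minus FL, in which tissue, Cre line and slide cannot be told apart. With the table column and the slide as a block, a setting chosen after seeing the data, it was -3.56 for Cebpe (limma adjusted p = 0.0236), while Spi1 (0.141), Cebpa (0.244) and Bcl11a (0.372) did not pass. For Cebpe the table column without the block gave an adjusted p of 0.793, and the scanner files gave 1.00, or 0.00877 without BM WT replicate 2.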

How the results depend on the processing

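In each fit, Satb1, Spi1, Cebpa and Cebpe kept the sign of the reported value under all alternatives run, and Satb1 passed in 9 of 10 alternatives of the BM table fit. Leaving out 1 array left a lone array that is assumed to vary like the other groups. Signal over background limits the Dach1 values, whose FL KO array gave only a bound. Where a cause is not plain from fewer genes or arrays, the cause was not tested. In the BM scanner fit (0 of 8 factors, 0 genes), leaving out 1 array gave 0 to 3 factors and 0 to 2223 genes. In the BM table fit (2 factors, 112 genes), the factors passing were 1 with quantile normalisation, 0 without a filter, 1 with a filter on every array, 1 with the mean of all probes and 4 with the slide as replicate block. Genes passing were 11 without a filter, 29 with a filter on every array and 981 with the slide as replicate block. Leaving out 1 array gave 2 to 4 factors and 344 to 659 genes. Between tissues (1 factor, 287 genes), 0 factors passed with quantile normalisation, without a filter or with the mean of all probes, and 3 with the table column. Genes passing were 189 with normexp, 3088 with the table column and 833 with that column and the slide as random block, and leaving out 1 array gave 0 to 3 factors and 1 to 1818 genes. For genotype over both tissues (0 and 0), the table column gave 1 factor and 23 genes, quantile normalisation gave 2 genes, and leaving out 1 array gave 0 to 1 genes. For the tissue difference of the genotype effect (0 and 0), the table column with the slide as replicate block gave 1 factor and 373 genes, and leaving out 1 array gave 0 to 2 factors and 0 to 1388 genes.

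Signs turned mostly for values near 0. With the table column, Ikzf1 over both tissues turned to 0.17 with and without the slide as replicate block, and the tissue difference of Tcf3 turned to 0.12 with and without it. The BM table difference of Tcf3 was 0.0050 with quantile normalisation. The BM scanner difference of Dach1 was -0.44 with normexp. BM minus FL, Bcl11a had 0.0763 with the mean of all probes, 0.17 with normexp and 0.39 with quantile normalisation, and Tcf3 had 0.22 with the mean of all probes and 0.0440 with quantile normalisation. Leaving out 1 array, the BM scanner differences ran from -0.0461 to 0.63 for Bcl11a, -3.37 to 5.06 for Dach1 and -0.68 to 0.20 for Ikzf1, and the BM table differences from -0.0181 to 0.28 for Ikzf1 and -0.12 to 0.0763 for Tcf3. BM minus FL ran from -0.17 to 0.12 for Bcl11a and -0.55 to 3.06 for Dach1. Over both tissues the range was -0.0420 to 0.34 for Bcl11a, -4.13 to 0.69 for Dach1 and -0.28 to 0.22 for Ikzf1, and the tissue difference ran from -0.0094 to 0.66 for Bcl11a and -0.71 to 0.0185 for Tcf3.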
